A study of Mus musculus with 16 samples.

Results

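Ribosomal proteins are the protein parts of the ribosome, and their mRNAs were followed here in mouse liver under a high-fat diet (HFD) and under treatment with nicotinamide mononucleotide (NMN), a precursor of NAD+. Members were all array features whose annotated symbol begins with Rpl, Rps, Mrpl or Mrps followed by a digit, or is Rplp0, Rplp1, Rplp2 or Rpsa, with Rps6k kinases left out. A feature also had to have a detection p under 0.01 on at least 4 of the 16 arrays. Of 142 features with such a name, 118 were members, each of a different gene. They comprised 52 cytosolic ribosomal proteins (29 of the large and 23 of the small subunit) and 65 mitochondrial ones (40 large and 25 small). The last, Rps19bp1, matches the name alone and encodes no ribosomal protein, so it was left out of all counts, which therefore cover 117 genes. The members stood among 6559 named genes and 10550 features detected by the same rule.

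The 16 arrays formed groups of 4 and held total RNA from the livers of female mice of the C57BL/6J strain. On chip A, mice on regular chow were set beside mice on HFD, and on chip B, mice on HFD beside mice on HFD that had received NMN by intraperitoneal injection for 7 days. The HFD arrays of both chips came from the same 4 mice, by the animal numbers of the deposited columns, so the 16 arrays held 12 mice. No genetic change is named for any group. The chow and HFD mice of chip A differed by diet, and both groups of chip B had eaten HFD. The sources used here give neither the age of the mice nor the length of the diet. Chow mice were measured on chip A alone and NMN mice on chip B alone.

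A cytosolic ribosome joins a small subunit, which reads the mRNA, to a large subunit, which forms the peptide bond, and its proteins are made in near-equal numbers. Mitochondria keep a ribosome of their own, whose proteins are encoded in the nucleus and imported. It makes a few membrane subunits of the respiratory chain. Translation of cytosolic ribosomal protein mRNAs is controlled by mTOR through a run of pyrimidines at the 5′ end of the mRNA, a control that mRNA levels do not show. In liver both ribosomes are abundant, since hepatocytes secrete plasma proteins and are rich in mitochondria.

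The bases around the start of the mRNA are shown for the genes on which the results below turn, because that run is the best known shared sequence of the cytosolic set. Each window holds 15 bases before the RefSeq start and the first 15 bases from it, in GRCm38.p6, 5′ to 3′ on the strand of the gene. Capitals mark a run of at least 6 C or T that begins with C within 10 bases of the start.
Rps9, chr7:3704026-3704055, plus strand: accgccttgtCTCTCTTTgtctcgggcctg
Rps27, chr3:90213634-90213663, minus strand: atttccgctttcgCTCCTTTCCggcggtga
Rps7, chr12:28635939-28635968, minus strand: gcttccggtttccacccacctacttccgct
Rps3a1, chr3:86142654-86142683, minus strand: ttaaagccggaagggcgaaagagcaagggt
Rpl35a, chr16:33056438-33056467, plus strand: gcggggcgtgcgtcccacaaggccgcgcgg
Mrps27, chr13:99344771-99344800, plus strand: ccacgcccgCCTTCCacttggtgcgctcca
Mrpl58, chr11:115403737-115403766, plus strand: ggaagagtgagcaccggaagcggtcctggg
Mrps26, chr2:130563742-130563771, plus strand: acttccgggccgggcgcaggcgcaggcgct
Mrpl20, chr4:155802863-155802892, plus strand: tgactttcggaagagctgtcagtgctctta

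RefSeq start windows were found for 44 of the 52 cytosolic and 58 of the 65 mitochondrial members. Such a run, searched on the strand of the gene, lay in 18 of the 44 cytosolic windows (40.9%) and in 10 of the 58 mitochondrial ones (17.2%), against 15.1% of all 27025 promoters. Among the genes shown, Rps9, Rps27 and Mrps27 had such a run. It crossed the annotated start in Rps9 and Rps27. In Mrps27 it lay wholly before the annotated start, and so outside the annotated mRNA. The counts include runs placed in this way. The windows depend on the annotated start, and a run a few bases from it may be missed or gained.

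Promoter motifs were counted in the 300 bases from 250 before to 50 after the start, on both strands, and matches of different motifs could overlap. The letters CCGGAAG, bound by the ETS-family factor GABP, were in 36.4% of cytosolic and 41.4% of mitochondrial promoters, against 9.12% of all promoters. The YY1 letters ATGGCGG were in 13.6% and 22.4%, against 4.19% of all. The NRF1 letters, GCGCA and GCGC with any 1 base between them, were in 5 of the 44 cytosolic and 9 of the 58 mitochondrial promoters (15.5%), against 4.78% of all. The SP1 letters GGGCGG were in 61.4% and 53.4%, against 35.9%. A match describes the sequence and does not show that a factor was bound. The promoter of Mrps27, the only member that passed the test for diet, held the GABP and the YY1 letters. Its CCGGAAG, on the opposite strand, is shown in capitals in the 150 bases before its start. No YY1 match lay within these printed bases.
Mrps27, chr13:99344636-99344785, plus strand: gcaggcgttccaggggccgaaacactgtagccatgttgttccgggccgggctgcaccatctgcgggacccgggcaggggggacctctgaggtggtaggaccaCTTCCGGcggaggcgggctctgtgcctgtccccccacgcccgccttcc

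Every array had the same mean signal of 202 over 25697 features, and between 9473 and 10569 features were detected on an array. Apoa2, Ahsg and other bright hepatocyte markers marked all arrays as liver. The albumin feature was dim, with a log2 intensity of 5.39 to 6.34. Of the 13 hepatocyte markers with a named feature, 11 were detected. Their summed level ran from 89330 to 91420 in chow and 84380 to 86910 in HFD on chip A. It was 84150 to 86710 in HFD on chip B and 80910 to 84880 with NMN. Between chow and HFD, 3 of the 11 hepatocyte markers fell, and 2 of 8 detected macrophage markers, 2 of 9 endothelial markers (Stab2 and Lyve1) and 1 of 3 erythroid markers (Slc4a1) rose, where 6.3% of all features passed. The summed level of the macrophage markers was 1410 to 2848 in chow, 2934 to 6159 and 2919 to 6039 in HFD on chips A and B, and 2668 to 8512 with NMN. That of 8 detected neutrophil markers, none of which passed, was 191.4 to 882.2 in chow, 313.1 to 6771 and 279.5 to 6277 in HFD on chips A and B, and 796 to 3263 with NMN. In HFD mouse 1 on chip A, which had the 6771, the neutrophil marker Lcn2 had a log2 intensity of 12.68 and no other one was above 7.21. On the NMN arrays Lcn2 was 9.49 to 11.63 and S100a8, the next highest, 6.17 to 7.44. On these arrays the neutrophil sum thus rests mostly on Lcn2. The macrophage marker Cd5l and the neutrophil marker Cxcr2 were not detected. In whole liver, fewer cells of a type and less RNA per cell cannot be told apart.

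Of the 117 members counted, 111 were detected on all 16 arrays. The mean signal of cytosolic members ran from 43.98 to 9485 with a median of 1474, and that of mitochondrial members from 49.65 to 2690 with a median of 356.7. Features differ in brightness for the same amount of RNA, so these signals do not rank genes by abundance. The highest cytosolic signal on an array, 11516, was below the highest of any feature, 24246, so no member stood at the top of the scale. Detection was incomplete for Rpl21 (13 arrays), Rps15a (9), Rps19 (15), Mrpl51 (14), Mrpl57 (15) and Rpsa, which lay just inside the rule with 4 arrays. Rpsa, the laminin receptor protein of the small subunit, was detected on 1 chow array, no HFD array of chip A, 1 HFD array of chip B and 2 NMN arrays, so only a bound exists for HFD on chip A. Mrpl39 lay just outside with 2 arrays.

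The 24 features that matched by name and were not members included those of Rplp0 and Rplp2, acidic proteins of the ribosomal stalk, and of Rpl4, Rpl6, Rpl14, Rpl17, Rpl27a, Rpl37 and Rps23, core proteins that growing cells need. These features were not above the detection level on 4 arrays, and give no level for their genes. The near-copies Rpl3l, Rpl22l1 and Rpl39l were also not detected, and Rpl7, Rpl11 and Rpl10l had no named feature. Of the near-copies fixed by name, Rpl7l1 and Rps27l were detected, beside Rpl3, Rpl10, Rpl22, Rpl39 and Rps27. Rpl36a and its near-copy Rpl36al, which were not fixed by name, were both detected on all 16 arrays. Probes of close copies and pseudogenes of ribosomal proteins may also bind each other's RNA, which was not tested. No member gene had more than 1 detected feature annotated with its symbol alone, so no second named feature was available to check a value. The 3914 detected features without a single annotated symbol were not searched for further probes of these genes.

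The first comparison asked how HFD and chow livers differed on chip A. Ribosomal protein mRNAs were at close levels: 1 of 117 members passed the test, the mitochondrial small subunit gene Mrps27, which fell. No cytosolic member passed in either direction. Values are log2 intensities after background correction and quantile normalization, and a member was called at a Benjamini-Hochberg adjusted p under 0.05 in limma over all 10550 features. By that rule 0.855% of members were called, against 6.3% of all features (290 higher and 375 lower in HFD). At an unadjusted p under 0.05 there were 5 members higher and 2 lower in HFD, 5.98% of them, against 24.6% of all features. The 4 HFD arrays did not overlap the 4 chow arrays for 6 members, 5.13%, against 14.9% of all features.

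Mrps27 encodes a pentatricopeptide-repeat protein of the mitochondrial small subunit. Its log2 intensity was 6.03, 5.84, 6.06 and 5.93 in the chow mice and 5.54, 5.34, 5.59 and 5.79 in the HFD mice on chip A. The groups did not overlap, and the difference was -0.40 on the log2 scale (SE 0.094, n = 4 and 4, adjusted p = 0.0214 by limma), or 1.32-fold lower. Its feature was dim, with a mean signal of 70.9 against a median of 356.7 for mitochondrial members. With median scaling the difference was -0.40 with background correction and -0.296 without it, so its size depends on that step. It was called in both. The same HFD mice gave 5.48, 5.50, 5.68 and 5.78 on chip B, and the NMN mice 5.51, 5.51, 5.58 and 5.58, all below the lowest chow mouse. The chow mice have no array on chip B, so this order across chips assumes that the feature reads alike on both. In the HFD mice its level on chip B minus that on chip A was 0.05 (SE 0.094). The call was lost with the 8 chip A arrays alone (adjusted p = 0.0540), without chow mouse 1 (0.0626), without HFD mouse 2 (0.0656) or without HFD mouse 3 (0.0625). HFD mice 2 and 3 had the highest mean log2 levels over the macrophage and over the neutrophil markers. By summed level, mouse 1 had the highest neutrophil value (6771 on chip A and 6277 on chip B). Without mice 2 and 3 the difference was -0.30 (adjusted p = 0.214 by limma). The part of these cells in the difference was not tested.

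Mrpl58, also known as Ict1, is a peptidyl-tRNA hydrolase built into the mitochondrial large subunit. Its log2 intensities in chow were 6.93, 6.91, 6.76 and 6.95, and in HFD on chip A 6.61, 6.53, 6.66 and 6.61. The groups did not overlap and the difference was -0.29 (SE 0.083), but its adjusted p of 0.0512 by limma missed the threshold. On chip B the same HFD mice gave 6.71, 6.60, 6.81 and 6.92, which overlapped the chow mice. Taking 1 feature per named gene, without unnamed features, put its adjusted p at 0.0491, so that 2 members were called.

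Mrps26, a small subunit protein, had log2 intensities of 6.45, 6.29, 6.396 and 6.26 in chow and 6.57, 6.49, 6.55 and 6.67 in HFD on chip A. HFD was the higher group without overlap, by 0.22 (SE 0.070), with an adjusted p of 0.0684 by limma that missed the threshold. On chip B the HFD mice gave 6.57, 6.43, 6.57 and 6.66, and mouse 2 lay within the chow range there. Mrps17, a small subunit protein, was also higher without overlap (0.19, SE 0.077, adjusted p = 0.141), and the large subunit protein Mrpl34 lower without overlap (-0.11, SE 0.072, adjusted p = 0.342), neither past the threshold.

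Other mitochondrial members with the smallest p for diet were Mrps23 (0.24), Mrpl3 (0.19) and Mrpl36 (0.16) with higher, and Mrpl15 (-0.24), Mrps22 (-0.20) and Mrpl24 (-0.16) with lower values in HFD, at adjusted p between 0.151 and 0.303 in limma. Mrps23 and Mrps22 belong to the small subunit and the other 4 to the large one. Mrpl12, a stalk protein that also binds the mitochondrial RNA polymerase, differed by 0.11 (SE 0.083, adjusted p = 0.444). Mrps12, at the decoding site, differed by 0.024 (SE 0.071), Mrpl11, at the base of the stalk, by -0.13 (SE 0.076, adjusted p = 0.320), and the small subunit protein Mrps35 by -0.043 (SE 0.102). All mitochondrial differences but that of Mrps27 lay between -0.29 and 0.24.

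**Figure D1:**
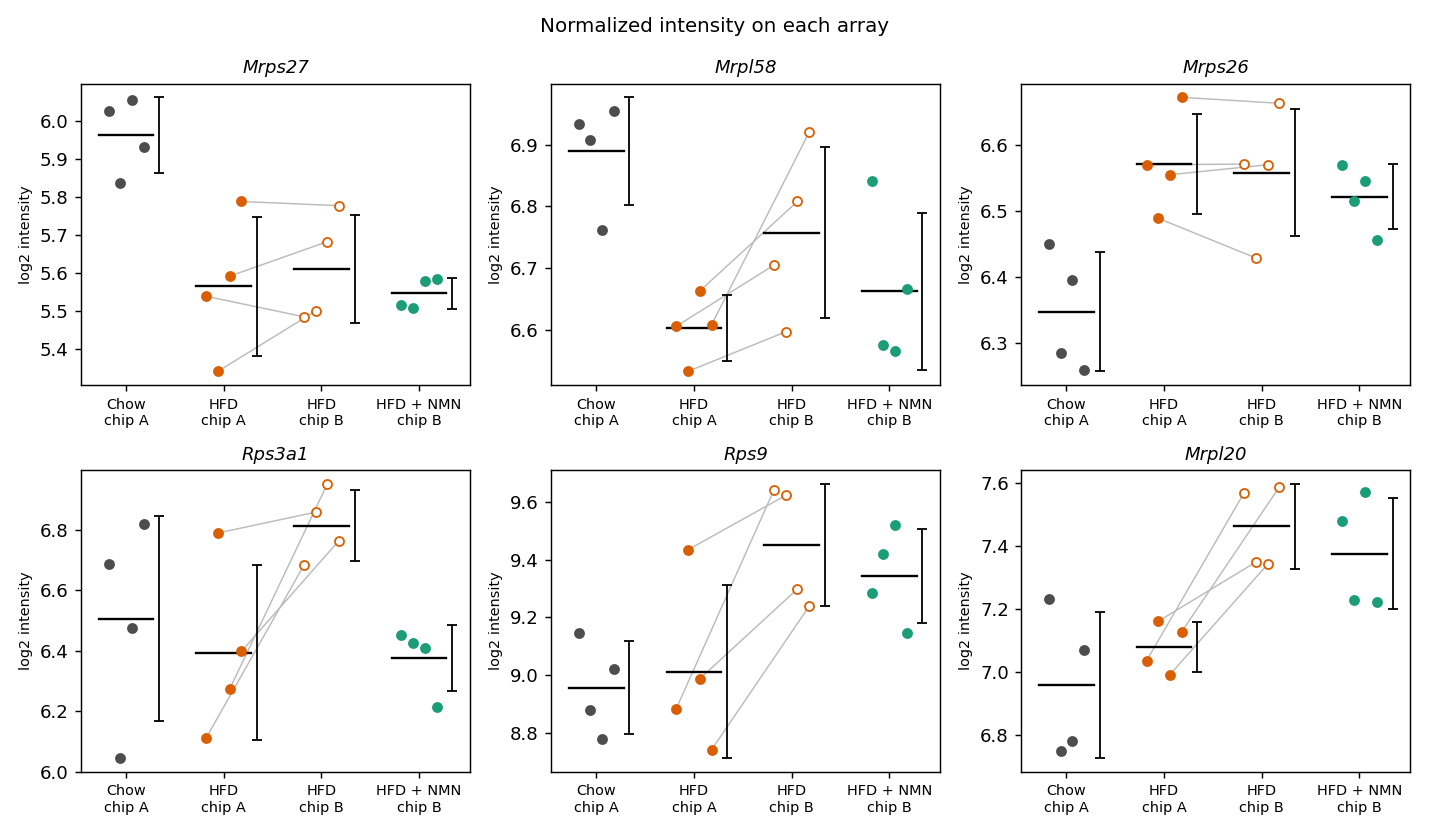
Log2 intensity of 6 ribosomal protein genes on each of the 16 arrays, after background correction and quantile normalization. Points are arrays, grey lines join the 2 arrays of each HFD mouse, horizontal bars are group means and vertical bars their SD (n = 4), and each panel has its own axis, which does not start at 0. All 12 arrays of mice on HFD lie below the 4 chow arrays for Mrps27, while Rps9 and Mrpl20 differ between the 2 arrays of each HFD mouse.

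Among the cytosolic members other than Rpsa, the differences between HFD and chow lay between -0.12 and 0.23. The smallest p belonged to Rps7, a small subunit protein that also binds MDM2. Its log2 intensity was 10.76, 11.07, 11.01 and 10.85 in chow and 11.07, 11.23, 11.14 and 11.07 in HFD on chip A, a difference of 0.21 (SE 0.082, adjusted p = 0.137 by limma). The lowest HFD array lay just above the highest chow array. Rps4x, a small subunit protein encoded on the X chromosome, had a difference of 0.20 (SE 0.086, adjusted p = 0.161). Rps27, a zinc-finger protein of the small subunit, had the widest difference of the set, 0.23 (SE 0.131, adjusted p = 0.290). In the other direction no cytosolic member reached an unadjusted p under 0.05, and Rps2, Rpl13a, Rplp1, Rpsa and Rpl7a had the smallest p. Their differences lay between -0.12 and -0.06, with none given for Rpsa, which no HFD array of chip A detected. Rps6, whose protein is phosphorylated downstream of mTOR, differed by 0.11 (SE 0.083, adjusted p = 0.424) and Rpl5, which carries the 5S RNA, by 0.16 (SE 0.099, adjusted p = 0.338).

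As a set, cytosolic members had a median difference of 0.038 for HFD against chow, and 34 of 52 were above 0. Mitochondrial members had a median of 0.0086, with 35 of 65 above 0, and all features one of -0.014. These directions depend on the scaling: with each array scaled to its median in place of quantile normalization, the medians were -0.054 for cytosolic, -0.071 for mitochondrial and -0.041 for all features. Without 1 mouse at a time the cytosolic median ran from 0.021 (without HFD mouse 2) to 0.062 (without HFD mouse 4). The mitochondrial one ran from -0.026 (without HFD mouse 4) to 0.026 (without chow mouse 1) and had no stable direction. The 95% confidence interval of the difference lay within a 1.5-fold change either way for all 51 cytosolic members other than Rpsa and for 64 of 65 mitochondrial members, and for 80.9% of all features. The exception was Mrps27.

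The second comparison set HFD mice given NMN against HFD mice on chip B. No member passed the test in limma, and neither did any of the 10550 features (0%). At an unadjusted p under 0.05 there were 3 members, 1 higher and 2 lower with NMN (2.56%), against 9.57% of all features. The groups did not overlap for 5 members (4.27%), against 4.78% of all features. The count stayed at 0 members under each alternative run, among them the authors' z scores.

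The lowest p belonged to Rps3a1, an early-assembling protein of the small subunit. On chip B its log2 intensity was 6.68, 6.86, 6.95 and 6.76 in the HFD mice and 6.45, 6.43, 6.41 and 6.21 in the NMN mice. The groups did not overlap and differed by -0.44 (SE 0.154, unadjusted p = 0.0118, adjusted p = 0.370 by limma). On chip A the same HFD mice gave 6.11, 6.79, 6.27 and 6.398. For this feature every HFD mouse read higher on chip B, by 0.42 on average. The NMN mice have no array on chip A, so the NMN difference was read within chip B alone. Why the chips differed was not tested.

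Mrpl57, a small protein of the mitochondrial large subunit, was near the detection level, with 4.82, 4.97, 4.84 and 4.66 in HFD on chip B and 4.99, 5.13, 5.198 and 5.02 with NMN. The difference was 0.26 (SE 0.101, adjusted p = 0.408 by limma). Mrpl49, of the large subunit, had 5.82, 5.63, 5.89 and 5.89 in HFD and 5.61, 5.58, 5.52 and 5.60 with NMN, a difference of -0.23 (SE 0.106, adjusted p = 0.496). Mrpl50 (0.10, SE 0.061, adjusted p = 0.625) and Rps27l (0.11, SE 0.059, adjusted p = 0.579) were also higher with NMN without overlap, and did not pass. Rps27l is a p53-inducible near-copy of Rps27, and for Rps27 itself the difference was -0.09 (SE 0.131).

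Mrps27, lower under HFD, differed by -0.06 between NMN and HFD mice (SE 0.094, adjusted p = 0.902 by limma), with a 95% interval from -0.26 to 0.13. For Mrps26 the NMN difference was -0.04 (SE 0.070) and for Rps7 -0.07 (SE 0.082), neither past the threshold. The NMN and diet comparisons share mice, since the HFD arrays of both chips are of the same 4 animals, so the values of both are given side by side and no relation between them was computed.

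Among cytosolic members the other small p for NMN belonged to Rpl38 (0.15), Rpl36al (0.12), Rplp1 (0.098) and Rpl30 (0.075) above 0, and to Rpl22 (-0.25), Rps24 (-0.16), Rpl23 (-0.14) and Rpl29 (-0.13) below it, at adjusted p between 0.579 and 0.845 in limma. Among mitochondrial members they belonged to Mrpl33 (0.12), Mrps18a (0.11) and Mrpl42 (0.11) above 0, and to Mrpl9 (-0.32), Mrpl17 (-0.17), Mrpl15 (-0.15) and Mrpl58 (-0.095) below it. The 95% intervals of Rps3a1 and Mrpl9 alone reached past a 1.5-fold change. Rps6 differed by -0.068 (SE 0.083) and Rpl5 by -0.014 (SE 0.099). Rpl3, at the peptidyl transferase centre, differed by 0.032 (SE 0.104), and Rpl10, which joins the large subunit last, by 0.0068 (SE 0.097). Rps19, the gene most often mutated in human Diamond-Blackfan anaemia, differed by -0.090 for NMN and by 0.22 for diet (SE 0.155 in both), and was missed on 1 chow array.

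As a set, cytosolic members had a median NMN difference of -0.026, with 18 of 52 above 0. The small subunit had a median of -0.068 with 6 of 23 above 0, and the large subunit one of -0.0071 with 12 of 29. The mitochondrial median was -0.015 with 26 of 65 above 0, and that of all features -0.0043. With median scaling the cytosolic and mitochondrial medians were -0.051 and -0.021. Without 1 mouse at a time the cytosolic median ran from -0.056 (without NMN mouse 3) to 0.0042 (without NMN mouse 4), and the mitochondrial one from -0.049 (without HFD mouse 2) to 0.017 (without HFD mouse 4), so neither direction was stable. The 95% interval lay within a 1.5-fold change for 51 of 52 cytosolic and 64 of 65 mitochondrial members, and for 87.8% of all features.

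**Figure D2:**
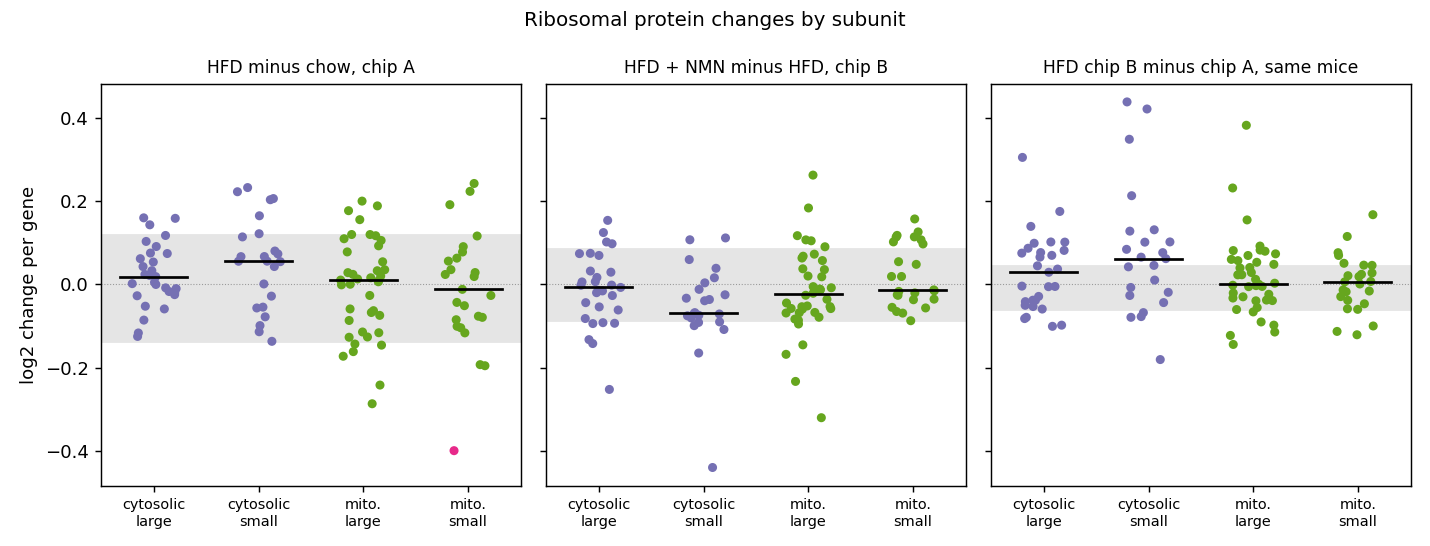
Difference in log2 intensity per gene for the 4 subunit classes in 3 comparisons, with 29, 23, 40 and 25 genes from left to right in each panel. Points are genes, black bars their medians, the grey band the range between the lower and upper quartile of all 10550 detected features, and the pink point Mrps27, the one member with an adjusted p under 0.05.

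The third comparison used the same 4 HFD mice measured on both chips, and asks how far a member's value moves when the same animal is measured again. No member passed in the fit of all arrays as independent, in which 5 features did (0.0474%). At an unadjusted p under 0.05 there were 6 members, all higher on chip B (5.13%), against 3.12% of all features. The 2 chips did not overlap for 5 members (4.27%), against 2.37% of all features: Rpl35a, Rps14, Mrpl20 and Mrps21 were higher on chip B and Mrps12 lower.

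Because the arrays pair by mouse, the mouse was also entered as a random block in limma. Then 9 members passed, all higher on chip B (7.69%), against 4.88% of all features (370 higher and 145 lower). They were Rps9 (0.44, SE 0.075, adjusted p = 0.00279), Rps3a1 (0.42, SE 0.084, adjusted p = 0.00774), Mrpl20 (0.38, SE 0.059, adjusted p = 0.00131), Rps25 (0.35, SE 0.069, adjusted p = 0.00715) and Rpl35a (0.31, SE 0.050, adjusted p = 0.00186), followed by Mrpl52, Rpl19, Mrps21 and Rps14 with differences from 0.13 to 0.23. With the mouse as a fixed replicate block on the 8 HFD arrays, no member passed and 19 features did.

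Rps9, a small subunit protein that binds early in assembly, had log2 intensities of 8.88, 9.43, 8.99 and 8.74 on chip A and 9.64, 9.62, 9.30 and 9.24 on chip B for HFD mice 1 to 4. The chip B value was the higher one in each of the 4 mice. Mrpl20, of the mitochondrial large subunit, gave 7.04, 7.16, 6.99 and 7.13 on chip A and 7.57, 7.35, 7.34 and 7.59 on chip B, without overlap. Rpl35a gave 9.48, 9.76, 9.59 and 9.37 on chip A and 9.85, 9.88, 9.82 and 9.88 on chip B. For these 3 genes the NMN mean was nearer to HFD on chip B than to HFD on chip A. It was 9.34 for Rps9, against 9.45 on chip B and 9.01 on chip A, 7.38 for Mrpl20, against 7.46 and 7.08, and 9.83 for Rpl35a, against 9.86 and 9.55. Rps3a1, which was also higher on chip B, went the other way, with an NMN mean nearer to HFD on chip A. NMN was not set against chow, since the 2 groups lie on different chips. The cytosolic median of the chip difference was 0.044 and the mitochondrial one 0.0030, against -0.012 for all features, and with median scaling they were -0.0089 and -0.027.

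For most members the spread between HFD mice was wider than that between the 2 arrays of a mouse, the shift between chips included. For cytosolic members the median SD between the 4 mice was 0.120 and that between the 2 arrays of a mouse 0.065, for mitochondrial members 0.115 and 0.063, and for all features 0.129 and 0.080. The SD between mice was the larger for 38 of 52 cytosolic and 50 of 65 mitochondrial members, and for 71.9% of all features. With the mean chip difference of each feature removed, it was the larger for 43 and 54 members and for 77% of all features. Mrpl9, of the mitochondrial large subunit, had the widest SD between mice, 0.328: HFD mice 1 to 4 gave 7.83, 7.79, 8.13 and 8.55 on chip A and 7.79, 7.86, 8.06 and 8.46 on chip B. Mouse 4 was the highest on both chips. Rpl12, which lies at the base of the ribosomal stalk, had an SD of 0.263, with 10.04, 10.45, 10.13 and 9.71 on chip A and 10.06, 10.40, 10.17 and 9.86 on chip B, and there mouse 4 was the lowest on both. Rps9 and Rps3a1 had the largest SD between arrays of a mouse, 0.345 and 0.340, followed by Mrpl20 with 0.285, all wider than their SD between mice of 0.227, 0.175 and 0.081.

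**Figure D3:**
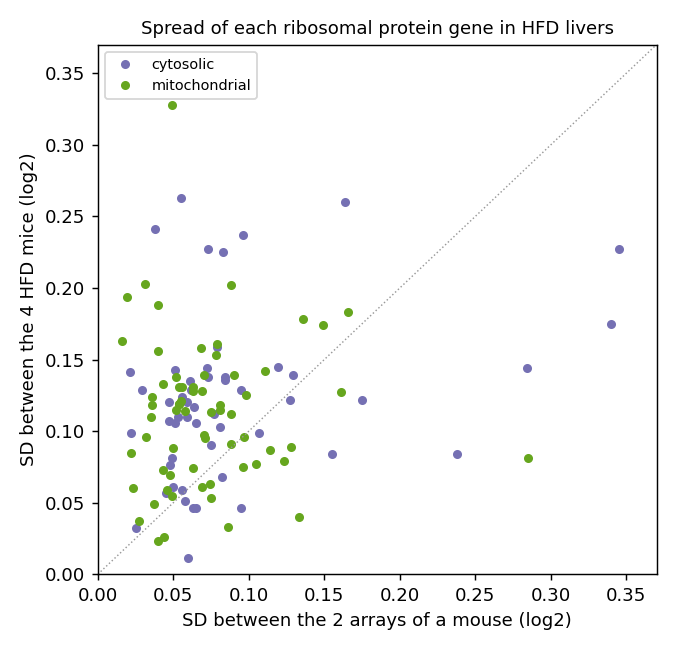
SD of each member's log2 intensity between the 4 HFD mice (vertical axis) against the SD between the 2 arrays of the same mouse (horizontal axis, shift between chips included). Points are genes and the dotted line marks equal SD. Most points lie above it, 38 of 52 cytosolic and 50 of 65 mitochondrial genes.

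The mean over each set, as a log2 difference from the chow mean, was computed for every array. For the cytosolic set it was 0.045, 0.009, -0.037 and -0.017 in the chow mice, 0.067, 0.112, 0.022 and -0.059 in the HFD mice on chip A, and 0.120, 0.142, 0.061 and 0.017 in the same mice on chip B. The NMN mice had 0.086, 0.048, 0.142 and -0.058. The groups overlapped, with means of 0.035 ± 0.073 in HFD on chip A, 0.085 ± 0.057 in HFD on chip B and 0.055 ± 0.084 with NMN, against an SD of 0.035 in chow (n = 4 each).

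For the mitochondrial set the means were 0.064, -0.045, -0.015 and -0.004 in chow, -0.043, -0.072, 0.022 and 0.057 in HFD on chip A, -0.017, -0.067, 0.029 and 0.062 on chip B, and 0.069, -0.029, -0.030 and -0.011 with NMN. All groups overlapped here too. The order of the 4 HFD mice was the same on both chips in each set, with mouse 2 the highest in the cytosolic and the lowest in the mitochondrial set, and mouse 4 the other way round. With median scaling mouse 2 stayed the lowest in the mitochondrial set on both chips, at -0.178 and -0.183. For the cytosolic set the order changed: mouse 1 was the highest, at 0.029 and 0.054, and mouse 2 the lowest, at -0.089 and -0.083. The order of the mice in the cytosolic set thus differed between the scalings.

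HFD mouse 2, the highest cytosolic and lowest mitochondrial array of chip A under quantile normalization, also had the highest mean over the 8 macrophage and the 8 neutrophil markers there, 1.69 and 2.45 above chow, and mouse 4 the lowest, 0.46 and 0.024. Mice 1 and 3 had 0.58 and 1.28 for macrophages and 1.03 and 2.18 for neutrophils. NMN mouse 3, with the highest cytosolic mean of its group under quantile normalization but not with median scaling (-0.055, against -0.042 in mouse 2 and -0.051 in mouse 1), had the highest levels of the 2 detected B-cell and 4 detected T-cell and NK-cell markers, 2.56 and 1.14 above chow. The NMN mouse with the highest macrophage mean was mouse 1 (1.87), which had the highest mitochondrial mean. The part of these cells in the set means was not tested.

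**Figure D4:**
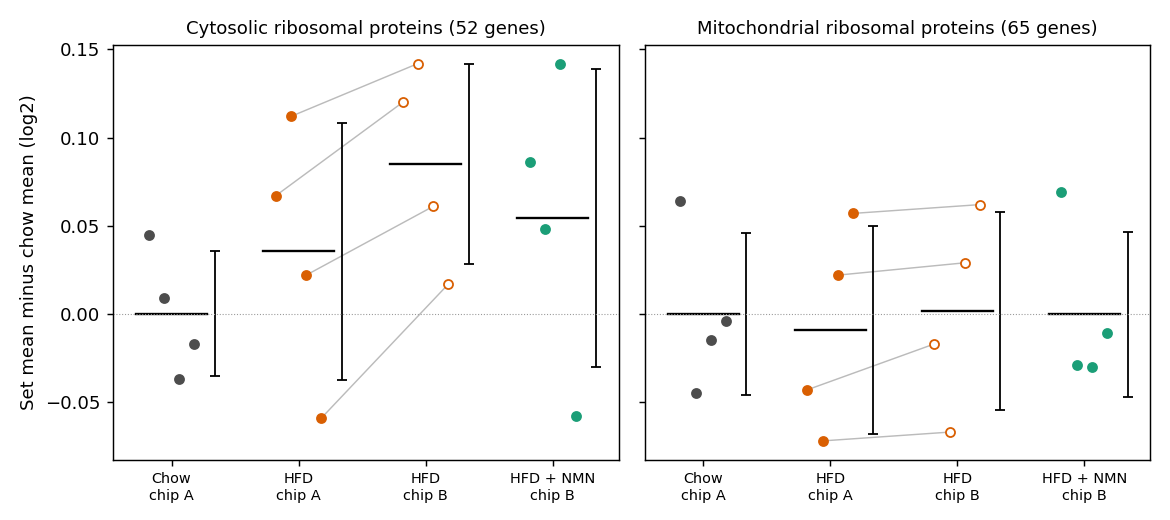
Mean of the cytosolic and mitochondrial sets on each array as a log2 difference from the chow mean. Points are arrays, grey lines join the 2 arrays of each HFD mouse, horizontal bars are group means and vertical bars their SD (n = 4). All groups overlap, and the order of the HFD mice is opposite in the 2 panels under the quantile normalization shown.

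How far members varied together was described over the 12 mice, as deviations from the group mean, with the 2 arrays of each HFD mouse averaged. The points share chips and normalization, so these correlations have no p. Pairs of cytosolic members had a median Pearson r of 0.33 and pairs of mitochondrial members one of 0.21, against 0.003 for all pairs of features. With median scaling they were 0.344, 0.334 and 0.029. For a cytosolic with a mitochondrial member the median r was -0.069, and 0.136 with median scaling, so its sign rests on the normalization. Under quantile normalization, the median correlation of a member with the mean of the rest of its set was 0.633 for cytosolic and 0.458 for mitochondrial members. It was not computed with median scaling.

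Rps16, of the small subunit, was the member most like the rest of its set (r = 0.971 over 12 mice), followed by Rpl23a (0.928) and Rps10 (0.919). These and the following r values come from quantile normalization alone. Rps16 gave 10.77, 10.86, 10.61 and 10.50 in the HFD mice on chip A, and mice 2 and 4 were its extremes as in the set mean. Least like the set were Rpl21 (-0.752), detected on 13 arrays, and Rpl22 (-0.589), which was detected on all 16 arrays. Rpl22, a large subunit protein that cells can lack while its near-copy Rpl22l1 takes its place, gave 8.86, 8.26, 8.45 and 8.72 on chip A and 8.79, 8.30, 8.50 and 8.68 on chip B. HFD mouse 2 was the lowest for Rpl22 on both chips, and NMN mouse 3 the lowest of all 16 arrays, at 8.04. Both had the highest cytosolic mean of their group under quantile normalization, and neither with median scaling. In the mitochondrial set Mrps11 (0.897) and Mrpl16 (0.866) were the most like and Mrps25 (-0.455) the least. These genes were chosen after their values were seen.

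Other parts of the translation machinery were read from lists of genes, which were also chosen with results of these data known. Of 4 detected subunit genes that the naming rule does not take in, none passed in any of the 3 comparisons. Dap3, which encodes mitochondrial small subunit protein mS29, had a diet difference of -0.18 (SE 0.071, adjusted p = 0.140) and Ptcd3, another small subunit protein with pentatricopeptide repeats like Mrps27, one of -0.21 (SE 0.096, adjusted p = 0.196). Fau, which encodes a fusion of a ubiquitin-like protein with Rps30, differed by 0.0034 (SE 0.089) for diet. Chchd1, also of the mitochondrial small subunit, had an NMN difference of 0.19 (SE 0.064, unadjusted p = 0.0097, adjusted p = 0.349).

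Of 25 detected genes of mitochondrial translation and ribosome assembly, 1 passed for diet, a share below the 6.3% of all features. It was Eral1, a GTPase that binds the mitochondrial 12S RNA during assembly of the small subunit, which fell. Its log2 intensity was 6.97, 6.92, 6.86 and 6.93 in chow and 6.55, 6.48, 6.68 and 6.69 in HFD on chip A, without overlap (-0.32, SE 0.085, adjusted p = 0.0377 by limma). On chip B the HFD mice gave 6.58, 6.49, 6.69 and 6.86, and only mouse 4 reached the lowest chow value. The list's median was -0.034, against -0.014 for all features. Tufm, the mitochondrial elongation factor Tu, had a difference of -0.13 (SE 0.072, adjusted p = 0.300), and Tfam, which packages mitochondrial DNA, one of -0.0059 (SE 0.088). None of 11 detected mitochondrial tRNA synthetases passed.

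Of 32 detected genes of ribosome assembly in the nucleolus, Npm1 alone passed for diet, again a share below the 6.3% of all features. It encodes nucleophosmin, which takes part in export of ribosomal subunits, and its log2 intensity was 10.71, 10.82, 10.88 and 10.75 in chow and 11.17, 11.27, 10.91 and 11.09 in HFD (0.32, SE 0.088, adjusted p = 0.0438 by limma). The list's median was 0.069 for diet and 0.092 for NMN. None of 28 detected cytosolic translation factors passed. Eef2, the elongation factor that moves the ribosome along the mRNA, had the smallest p of that list for NMN (-0.39, SE 0.115, unadjusted p = 0.00372, adjusted p = 0.283). NMN mouse 2 gave 8.66, within the HFD values of chip B, while the other NMN mice gave 8.29, 8.23 and 8.25, below them.

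Of 16 detected regulators of ribosome or mitochondrial biogenesis, 2 passed for diet, where 6.3% of all features did. Mlst8, a subunit of both mTOR complexes, rose from 7.58, 7.68, 7.82 and 7.63 in chow to 8.14, 7.98, 8.09 and 7.98 in HFD (0.37, SE 0.078, adjusted p = 0.0135 by limma). Ppargc1a, a coactivator of genes of mitochondrial biogenesis, fell from 5.75, 5.80, 5.37 and 6.11 to 5.29, 5.03, 5.12 and 5.39 (-0.55, SE 0.146, adjusted p = 0.0358), and here 1 chow mouse lay below the highest HFD mouse. None of the 16 passed for NMN, and the features of Myc, Mtor and Gabpa were not detected.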

How the data were processed

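Total liver RNA was labelled as cRNA and read on 1-colour Illumina MouseRef-8 bead arrays, per the labels. The deposited table holds a linear intensity per probe, scaled by the authors to 1 mean per array, and a detection p-value. A second deposited table holds a z score within each array, of unstated making. Its values were used for an alternative only.

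Intensities were background-corrected with the detection p-values and quantile normalized with neqc (offset 16, log2 scale) in limma 3.58.1 under R 4.3.3, which draws differences of dim probes toward 0. Symbols came from the platform's annotation. One limma fit of 16 arrays had 4 group means, with p-values adjusted over 10550 detected probes. It counts each HFD mouse with 2 arrays as if independent. The number of arrays limits the precision. The fit was tested on simulated data.

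Members, gene lists and tests were chosen with earlier results of these data known. Named members were those called or, in each direction and set, the 5 with the smallest p, plus genes fixed by name. Members outside that rule, such as Mrpl34, Rps14 and Rpl12, were named after their values were seen. The reasons were incomplete detection, groups without overlap, spread between mice or likeness to their set. Same-numbered mice of different groups are different animals, with correlations of their deviations between 0.016 and 0.245 for diet and between -0.285 and 0.306 for NMN. The numbers pair only the HFD arrays of both chips, which are the same animals (0.734 to 0.883), and there the mouse was entered as a block. Other normalizations, filters, blocks, array weights and leaving out single mice were run as alternatives. Start and promoter sequences are RefSeq's for GRCm38.p6.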

Additional observations from a re-analysis of the deposited data

Results flagged for a closer look

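Each group of 4 arrays was checked for a value far from the other 3, for 58 named members and both set means, 240 groups in all. In 7 groups (2.92%) the gap to the nearest array, divided by the whole range of the group, was above Dixon's 95% critical value for 4 samples. Chance gives about 1 group in 20. Rpl7a in HFD mouse 2 on chip A was 8.57 against 8.49 for the other mice (ratio 0.988). Mrps12, the decoding-site protein of the mitochondrial small subunit, was 10.02 in NMN mouse 2 against 10.19 to 10.20 in the others (0.972), and 10.32 in chow mouse 3 against 10.05 to 10.10 (0.830). Rps27 was 10.73 in chow mouse 2 against 10.38 to 10.40 (0.947). Mrpl52 was 8.76 in HFD mouse 2 on chip B against 8.39 to 8.43 (0.898). Rps24 was 5.24 in chow mouse 4 against 5.41 to 5.43 (0.881). Rpl39 was 11.01 in NMN mouse 3 against 10.78 to 10.82 (0.830). That mouse had the highest cytosolic set mean of its group under quantile normalization but not with median scaling, and Rpl39 is part of that set.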

How the results depend on the processing

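The diet count of called members, 1 as reported, was 2 with uncorrected log2 signals and median scaling, with background-corrected signals and median scaling, and with 1 feature per named gene, and 3 with the z scores and with estimated array weights. It was 0 with only the arrays of the contrast, and 0 without HFD mice 2 and 3, an alternative chosen after seeing the data (Mrps27 -0.30, adjusted p = 0.214). Without 1 mouse at a time it ran from 0 to 2. With a replicate block, although the numbers do not pair chow with HFD mice, it was 1 (Mrps27, adjusted p = 0.0459). The added calls were Mrpl58, with an adjusted p from 0.0365 to 0.0491 where called, and Mrps26. The NMN count was 0 throughout, over 0 to 6 calls among all features. The chip count was 9 with the mouse as a random block and 0 otherwise. With uncorrected and corrected median scaling, the diet medians were -0.051 and -0.054 for cytosolic and -0.064 and -0.071 for mitochondrial members, and the cytosolic chip median was -0.036 uncorrected. The NMN difference of Mrpl15, -0.15, was 0.0034 without HFD mice 2 and 3. The cause was not tested. Among all features, diet calls ran from 140 to 1111 over the other alternatives and from 235 to 822 without 1 mouse. Quantile normalization and dim probes limit small shifts of a whole set, which these arrays cannot fix in direction.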
